A study of Homo sapiens with 6 samples.

Results

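The genes described here are 10 dual-specificity phosphatases that act on MAP kinases (DUSP1, DUSP2, DUSP4, DUSP5, DUSP6, DUSP7, DUSP8, DUSP10, DUSP16 and DUSP22), chosen by name from the 20046 genes that have a probe of their own in the array annotation. All 15 of their probes were taken, whatever the values. They were measured in OCI-LY10, an established human line of the activated B cell-like subtype of diffuse large B-cell lymphoma, on Illumina bead arrays. The groups were cells cultured with pimasertib for 4, 8 and 12 h and cells cultured with the solvent DMSO for 4, 8 and 12 h, with 1 array for each treatment and time and no other agent in the labels. Pimasertib inhibits MEK, the kinase that activates ERK, and its dose is not given in the sources used here. The data come from 1 cell line, and nothing in the labels says that the 3 times were separate cultures, so a p-value speaks only of the spread among the 6 arrays, part or all of which may be technical.

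Dual-specificity phosphatases switch MAP kinases off by removing the phosphates from the threonine and the tyrosine of the activation loop. Several are themselves transcribed when a MAP kinase is active, which makes them a negative feedback on the pathway that induces them. Textbooks group the family by place and substrate. DUSP1, DUSP2, DUSP4 and DUSP5 are nuclear and inducible by growth factors or stress, DUSP6 and DUSP7 are cytoplasmic and selective for ERK, and DUSP8, DUSP10 and DUSP16 prefer JNK and p38. DUSP22 is an atypical member that lacks the kinase-binding domain of the others.

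Values are log2 intensities, quantile-normalized by the authors, and a value counted as above background when it exceeded 6.70, a threshold 3 background SDs above the most frequent value of all arrays. A probe was kept for testing when at least 3 of the 6 arrays exceeded it, which held for 19896 of 47231 probes. The arrays were not equally alike: over kept probes the DMSO array of 8 h had a mean correlation of 0.92 with the rest, and each of the other 5 one of 0.95 to 0.97. Of 10 kept DUSP probes, 7 had their highest or lowest value in that array, as did 65.2% of all kept probes, so DUSP values are given below time by time, and means that moved by over 1.5 times without the 8 h pair are given both ways. Of B cell markers 6 were measured, with a median difference of -0.13. At all 3 times 3 were lower and 0 higher, against 15.7% and 17.4% of all genes by their brightest kept probe. At 4 and 12 h alone 5 were lower and 0 higher, against 28.2% and 29.1%. The 4 of smallest p are named below. The summed level of the list ran from 10.02 to 10.11 with pimasertib and from 9.87 to 10.16 with DMSO, as the log2 of the mean over its genes, and its part in the results was not tested. The B cell kinase BLK was at -0.32 and the adaptor BANK1 at -0.34 (-0.15 without the 8 h pair). MS4A1, which encodes CD20, was at -0.21 (-0.14 without that pair) and CD79B at 0.11 (-0.05 without it). Other kept probes were at -0.11 for MS4A1 and at -0.08 and 0.51 for CD79B. PAX5, a factor that defines B cells, exceeded background in 0 arrays. Of the markers of T cells, myeloid cells, fibroblasts and epithelium, 1 of 6, 1 of 5, 1 of 4 and 3 of 5 passed the filter.

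DUSP2 and DUSP1 are shown by the 250 bases before their start sites, since they are nuclear members of one class with unlike values in these arrays. Of the 10 genes, 8 are in the RefSeq promoter table (build GRCh38.p14). DUSP4 and DUSP5 are not in it, so their promoters were not searched. The DUSP2 window is chr2:96145441-96145690 and the DUSP1 window is chr5:172771196-172771445, both on the minus strand, upstream of the transcribed sequence. Both are printed 5′ to 3′ on the gene's strand. Capitals mark exact matches, on either strand, to 6 motifs: the cAMP response element TGACGTCA, the E-box CACGTG, the EGR-type site GCGGGGGCG, the AP-1 site TGANTCA, the ETS site CCGGAAG and the CArG box bound by serum response factor.
DUSP2: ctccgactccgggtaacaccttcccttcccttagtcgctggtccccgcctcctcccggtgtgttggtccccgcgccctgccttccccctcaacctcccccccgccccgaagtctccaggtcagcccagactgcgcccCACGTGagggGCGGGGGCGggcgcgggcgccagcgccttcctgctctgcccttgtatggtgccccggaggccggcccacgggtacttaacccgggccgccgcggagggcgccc
DUSP1: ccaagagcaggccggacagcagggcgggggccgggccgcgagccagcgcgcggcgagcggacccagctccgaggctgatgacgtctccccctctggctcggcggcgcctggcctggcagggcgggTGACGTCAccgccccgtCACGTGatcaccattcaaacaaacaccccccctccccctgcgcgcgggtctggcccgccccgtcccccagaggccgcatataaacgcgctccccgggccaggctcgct

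In the DUSP2 window the capitals are an E-box 113 to 108 bases before the start and an EGR-type site 103 to 95 bases before it. In the DUSP1 window they are a cAMP response element 125 to 118 bases before the start and an E-box 108 to 103 bases before it. Over 35116 windows of the same length in the table, 6.34% held the E-box, 4.72% the EGR-type site and 1.65% the cAMP response element. DUSP8 held 2 cAMP response elements. Its window, chr11:1572272-1572521, lies inside the gene's own span of chr11:1554051-1572848, unlike those of DUSP2 and DUSP1. No other window of the 8 genes searched held any of the 6 motifs in these letters. The AP-1, ETS and CArG letters stood in no DUSP window, against 6.57%, 8.52% and 1.16% of all windows. These matches describe the letters only.

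The comparison of pimasertib with DMSO asked which of these phosphatase genes differ in level between cells given the MEK inhibitor and cells given the solvent. MEK activity itself is not measured by these arrays. Of the 15 probes 10 were kept, for 8 of the 10 genes, and 8 probes exceeded background in all 6 arrays. DUSP2 had the largest difference of the 10 kept probes, and DUSP5 was lower by less. DUSP6, whose transcript is widely used as a readout of ERK signalling, lay near background, with a mean difference of 0.12. It averaged 6.84 with DMSO, against a most frequent value of 6.49 over all arrays, so a fall as large as that of DUSP2 could not show. DUSP4 and DUSP7 exceeded background in 0 of 6 arrays.

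**Figure D1:**
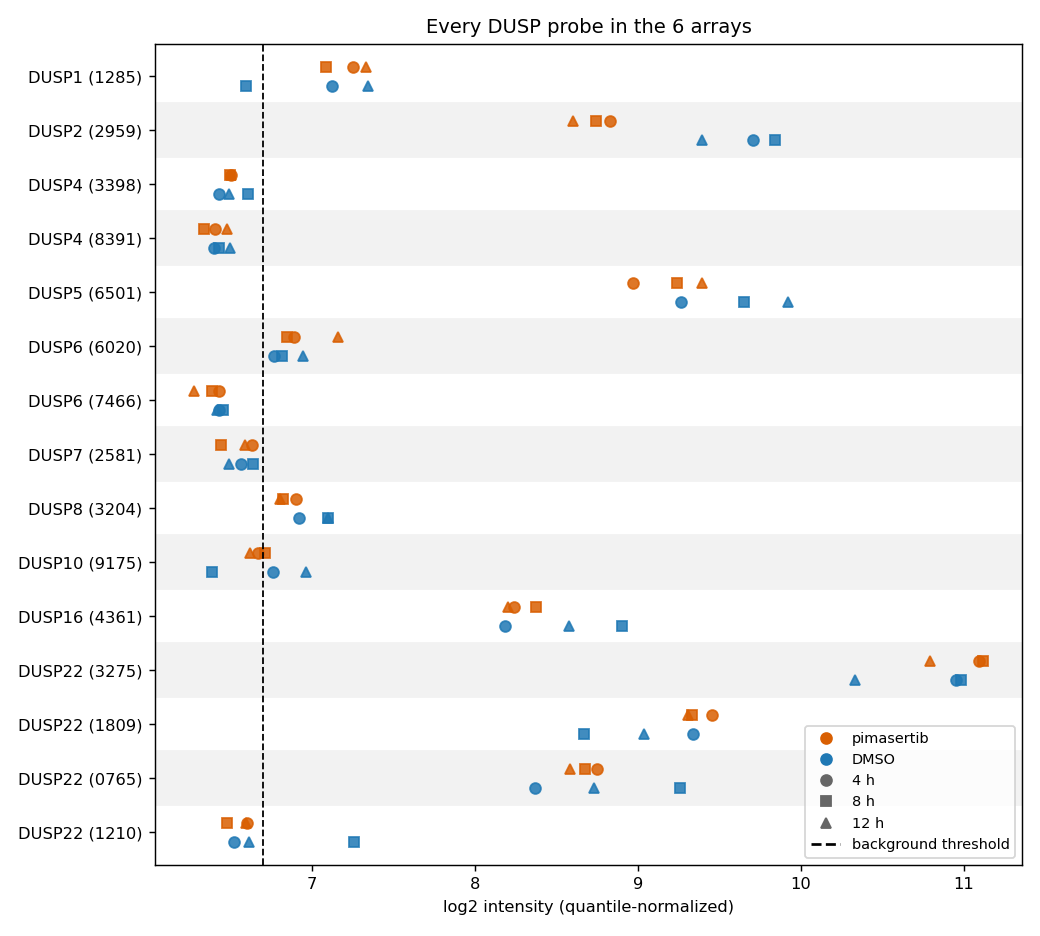
Log2 intensity of all 15 DUSP probes (rows, gene with the end of its probe identifier) in the 3 pimasertib arrays (orange, upper points of a row) and the 3 DMSO arrays (blue, lower points), with the time as the marker shape. The dashed line is the background threshold of 6.70; the pimasertib arrays of DUSP2 lie at 8.60 to 8.83, apart from the DMSO arrays at 9.39 to 9.84, while both DUSP4 probes and the DUSP7 probe lie below the line throughout.

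DUSP2, also called PAC-1, is an inducible nuclear phosphatase of blood cells, encoded at chr2:96143169-96145440 (GRCh38.p14). Its probe read 8.83, 8.74 and 8.60 with pimasertib at 4, 8 and 12 h, against 9.70, 9.84 and 9.39 with DMSO at the same times. All pimasertib arrays were lower than all DMSO arrays, and in bulk RNA fewer expressing cells and less RNA per cell cannot be told apart. DUSP2 averaged 8.72 ± 0.12 with pimasertib and 9.65 ± 0.23 with DMSO (SD, n = 3 each). The difference was -0.88 at 4 h, -1.09 at 8 h and -0.79 at 12 h, or 1.84-fold, 2.14-fold and 1.73-fold lower. Its mean was -0.92 ± 0.16 (SE, n = 3 per group, 95% interval -1.30 to -0.54), which is 1.89-fold lower with pimasertib. In limma, fitted with the time point as a factor, the unadjusted p was 0.000885 and the adjusted p over all kept probes was 0.691, so DUSP2 did not pass. By that p DUSP2 ranked 8 of 19896 kept probes and by the size of its difference 151. DUSP2 was also at least 1.5-fold lower at each of the 3 times, as were 16 of all kept probes, or 0.0804%. Without the 8 h pair the mean difference was -0.84.

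DUSP5 is a nuclear phosphatase that acts on ERK and anchors it in the nucleus, and its gene lies at chr10:110497907-110511533 (GRCh38.p14). The DUSP5 probe read 8.97, 9.24 and 9.39 with pimasertib at 4, 8 and 12 h, against 9.27, 9.65 and 9.92 with DMSO. At each time pimasertib was the lower, but the groups overlap, since values in both were higher at later times. The 12 h value exceeded that of 4 h by 0.42 with pimasertib and by 0.66 with DMSO. The difference was -0.30, -0.41 and -0.53 at 4, 8 and 12 h, with a mean of -0.41 ± 0.15 (SE, n = 3 per group, 95% interval -0.78 to -0.04), or 1.33-fold lower. In limma the unadjusted p was 0.0343 and the adjusted p 0.691, so DUSP5 did not pass either. Without the 8 h pair the mean was the same, -0.41, with an unadjusted p of 0.0559 in limma. The array also carries DUSP5P1, a pseudogene copy of DUSP5. Its kept probe differed by 0.01, 0.55 and -0.25 at 4, 8 and 12 h, a mean of 0.10 that is positive only with the 8 h pair. Whether transcripts of gene and copy bind each other's probes was not tested.

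DUSP1, the stress-inducible and growth factor-inducible phosphatase MKP-1, read 7.25, 7.08 and 7.33 with pimasertib, against 7.12, 6.59 and 7.34 with DMSO. The groups overlap, and the DMSO value of 8 h lay below background. The mean difference was 0.20 ± 0.17 (SE, n = 3 per group, 95% interval -0.21 to 0.62, adjusted p = 0.760, limma). It was 0.06 when the 8 h pair was left out and -0.01 when its DMSO array was. DUSP4, or MKP-2, an inducible phosphatase of ERK and JNK, lay at 6.34 to 6.50 with pimasertib and 6.39 to 6.60 with DMSO over its 2 probes. A difference of DUSP4 was not detectable at these signals.

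Both cytoplasmic ERK-selective members were near or below background. DUSP6, or MKP-3, had 1 kept probe, at 6.89, 6.84 and 7.16 with pimasertib against 6.76, 6.82 and 6.94 with DMSO. Pimasertib was the higher at each time, by 0.12, 0.03 and 0.22, and the groups overlap. The mean difference was 0.12 ± 0.15 (SE, n = 3 per group, 95% interval -0.24 to 0.49, adjusted p = 0.841, limma), and 0.08 without the 12 h pair. So close to background, an intensity difference understates a difference in transcript. The other DUSP6 probe lay at 6.28 to 6.43 with pimasertib and 6.42 to 6.45 with DMSO, below background in all arrays. DUSP7, the closest relative of DUSP6, lay at 6.44 to 6.63 with pimasertib and 6.49 to 6.63 with DMSO.

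Among the phosphatases of JNK and p38, DUSP16 was the one well above background. DUSP16, or MKP-7, shuttles between nucleus and cytoplasm and acts on JNK. It read 8.24, 8.37 and 8.20 with pimasertib, against 8.18, 8.90 and 8.58 with DMSO. The pimasertib arrays lay closer together than the DMSO arrays, with SDs of 0.09 and 0.36, and the groups overlap. In 78.3% of all kept probes the SD was likewise smaller with pimasertib. The mean difference was -0.28 ± 0.18 (SE, n = 3 per group, 95% interval -0.71 to 0.15, adjusted p = 0.716, limma), made of 0.06, -0.53 and -0.37 at 4, 8 and 12 h. It was -0.16 with the 8 h pair left out and -0.45 with the 4 h pair left out.

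DUSP8, an inducible phosphatase of JNK and p38 known mainly from brain and heart, read 6.90, 6.82 and 6.80 with pimasertib, against 6.92, 7.10 and 7.10 with DMSO. All pimasertib values were below all DMSO values, but at 4 h by 0.02 only. The mean difference was -0.20 ± 0.16 (SE, n = 3 per group, 95% interval -0.58 to 0.18, adjusted p = 0.754, limma). DUSP10, or MKP-5, exceeded background in 1 of 3 pimasertib arrays and 2 of 3 DMSO arrays. Its values were 6.67, 6.71 and 6.62 with pimasertib against 6.76, 6.39 and 6.96 with DMSO, a mean difference of -0.04 ± 0.18 (SE, n = 3 per group, adjusted p = 0.967, limma). The DUSP10 mean was -0.22 when the 8 h pair was left out and 0.12 when the 12 h pair was.

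**Figure D2:**
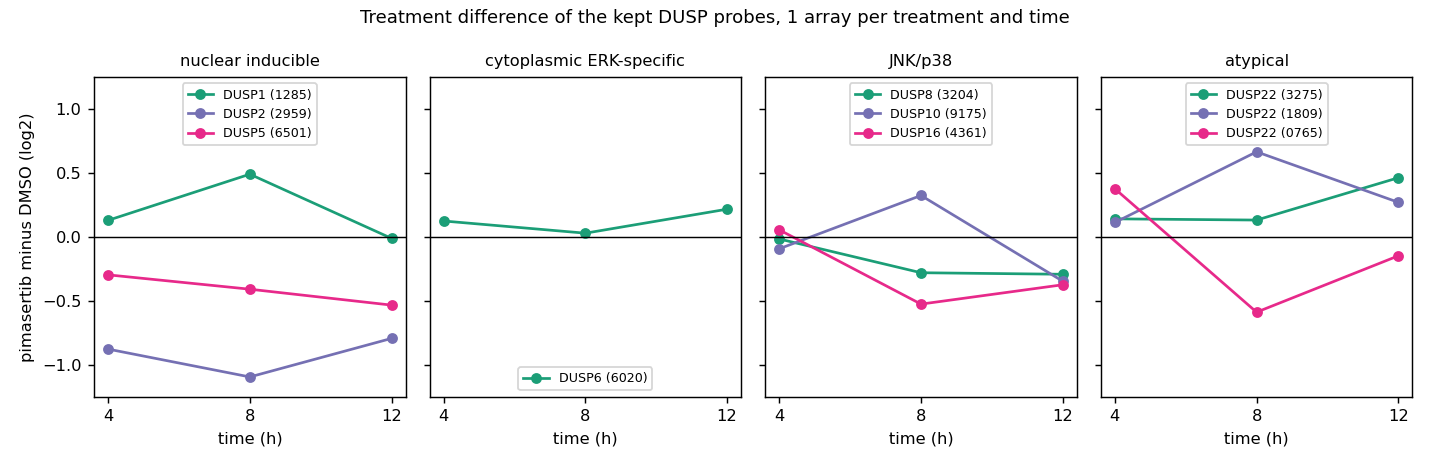
Difference of pimasertib minus DMSO (log2, vertical axis) at 4, 8 and 12 h for the 10 kept DUSP probes, a panel per class, each point from 1 array per treatment. DUSP2 runs between -1.09 and -0.79 and DUSP5 between -0.53 and -0.30, while 4 probes cross 0.

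DUSP22, also called JKAP, is known as an activator of the JNK pathway and as a gene rearranged in some T cell lymphomas. It has 4 probes, all annotated to this gene, and they did not give one answer. Probe ILMN_1813275 read 11.09, 11.12 and 10.79 with pimasertib against 10.95, 10.99 and 10.33 with DMSO. Pimasertib was higher at each time and the groups overlap, with a mean difference of 0.25 ± 0.16 (SE, n = 3 per group, 95% interval -0.14 to 0.63, adjusted p = 0.723, limma), and 0.14 without the 12 h pair. Probe ILMN_1671809 read 9.45, 9.33 and 9.31 with pimasertib against 9.34, 8.67 and 9.04 with DMSO. Its mean difference was 0.35 ± 0.17 (SE, n = 3 per group, 95% interval -0.07 to 0.77, adjusted p = 0.691, limma), and leaving out the 8 h pair gave 0.19.

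Probe ILMN_1730765 of DUSP22 went the other way at the later times. It read 8.75, 8.67 and 8.58 with pimasertib against 8.37, 9.26 and 8.73 with DMSO, so the difference was 0.38 at 4 h, -0.59 at 8 h and -0.15 at 12 h. Its mean was -0.12 ± 0.22 (SE, n = 3 per group, adjusted p = 0.894, limma) with the 8 h pair and 0.11 without it. The last probe, ILMN_1651210, exceeded background in the DMSO array of 8 h alone, at 7.26 there and 6.47 to 6.61 elsewhere. Relative to the mean of the DMSO arrays of 4 and 12 h, that of 8 h was higher by 0.35, 0.71 and 0.69 in 3 DUSP22 probes and lower in ILMN_1671809, at -0.52. Over the 4 probes the SD among the 3 arrays of a group was 0.07 to 0.18 with pimasertib and 0.34 to 0.45 with DMSO.

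**Figure D3:**
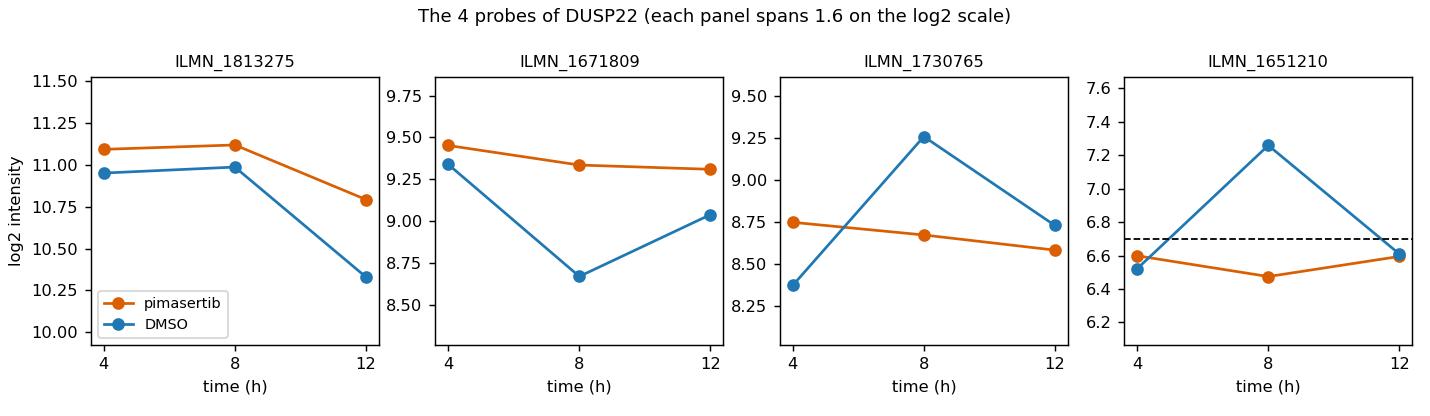
Log2 intensity (vertical axis) of the 4 DUSP22 probes against time in hours, with pimasertib in orange and DMSO in blue, 1 array per point; all panels span the same log2 distance, and the dashed line is the background threshold. The DMSO point of 8 h is the highest of its panel for ILMN_1730765 (9.26) and ILMN_1651210 (7.26) and the lowest for ILMN_1671809 (8.67).

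By class, the 3 kept probes of nuclear inducible members had a median difference of -0.41, with 2 lower at all times and DUSP1 mixed. The kept DUSP6 probe of the cytoplasmic class was at 0.12. The 3 kept probes for JNK and p38 phosphatases had a median of -0.20, with DUSP8 lower at all times, and the 3 of DUSP22 a median of 0.25, with 2 higher at all times. The median over all kept probes was 0.02. The medians by class rest on 1 to 3 probes, and no test between classes was made.

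Set against the whole array, the counts of DUSP probes were as follows. None of the 10 passed an adjusted p of 0.05 in limma, nor did any of the 19896 kept probes (0.0%). At an unadjusted p under 0.05, 2 of 10 were lower with pimasertib, DUSP2 and DUSP5, against 3.44% of all kept probes, and 0 were higher, against 3.42%. Without the 8 h pair it was DUSP2 alone, against 2.63%. Lower at all 3 times were 3 of 10 (DUSP2, DUSP5 and DUSP8), against 14.7%, and higher at all 3 times were 3 of 10 (DUSP6 and 2 probes of DUSP22), against 17.4%. At 4 and 12 h alone these counts were 4 and 3 of 10, against 27.3% and 28.6%. The arrays of the groups did not overlap in 2 of 10 probes, both lower with pimasertib (DUSP2 and DUSP8), against 7.5%, and in 0 of 10 with pimasertib higher, against 8.11%. When the DMSO array of 8 h was left out, DUSP10 joined them, making 3 of 10 lower, against 14.1%. An exact test of 3 arrays against 3 that ignores the pairing by time cannot give a p below 0.1.

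**Figure D4:**
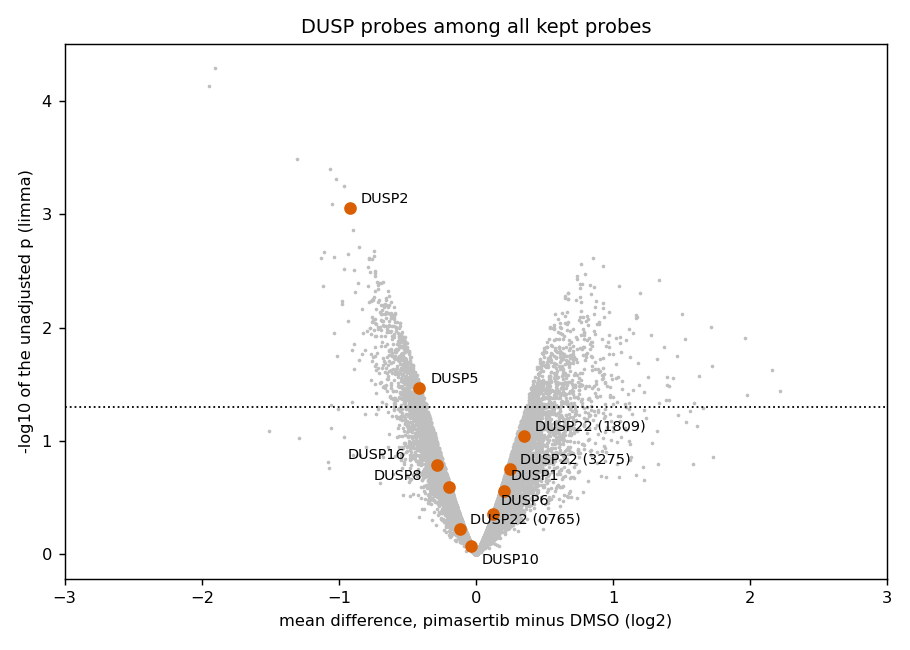
Mean difference of pimasertib minus DMSO (log2, horizontal axis) against the negative log10 of the unadjusted p in limma (vertical axis) for all 19896 kept probes in grey and the 10 kept DUSP probes in orange. DUSP2 (-0.92) and DUSP5 (-0.41) lie above the dotted line at an unadjusted p of 0.05, and the other 8 lie below it.

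At single times, with 1 array per treatment and no test, DUSP2 alone of the 10 probes differed by at least 1.5-fold at 4 h, where 1.86% of all kept probes did. At 8 h DUSP2 and 2 DUSP22 probes (ILMN_1671809 higher, ILMN_1730765 lower) differed that much, against 23.5% of all kept probes. At 12 h it was DUSP2 alone, against 16.1%.

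Whether the difference grew or shrank with time was tested with the product of treatment and hours as a term in limma. The DUSP2 difference changed by 0.01 ± 0.05 per hour and the DUSP5 difference by -0.03 ± 0.04 per hour (SE, 6 arrays), with an adjusted p of 0.9999 for each in limma. None of 10 DUSP probes passed, nor did any kept probe (0.0%), and 0 of 10 had an unadjusted p under 0.05, against 1.87% of all kept probes. Over time, 9 of 10 DUSP probes had a smaller SD among the pimasertib arrays than among the DMSO arrays, as did 78.3% of all kept probes; DUSP6 was the exception, at 0.17 with pimasertib and 0.09 with DMSO.

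The rest of the pathway was described from lists, with the brightest kept probe of each gene. Over all 11100 genes taken so, 15.7% were lower and 17.4% higher at all 3 times, and 3.9% were lower and 4.02% higher at an unadjusted p under 0.05 in limma. At 4 and 12 h alone 28.2% were lower and 29.1% higher. Among 25 other ERK output and feedback genes 13 were measured, and at all 3 times 9 of these were lower and 0 higher. Without 8 h the counts were 11 and 1. Their median difference was -0.21. At an unadjusted p under 0.05 in limma there were 4, all lower, and after adjustment 0. The immediate early factor EGR1 was at 6.87, 6.74 and 6.62 with pimasertib against 8.32, 8.77 and 8.85 with DMSO, a mean difference of -1.90, the 12 h pimasertib array lying below background. The small MAF factor MAFF was at -0.62 and the ETS factor ETV5 at -0.69, and their second probes, near background, were at -0.13 and 0.23. IER5, an immediate early gene, was at -0.44.

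Of 13 MAP kinase genes 10 were measured, with a median of 0.06. At all 3 times 0 were lower and 4 higher, against 15.7% and 17.4% of all genes. At 4 and 12 h alone 1 was lower and 6 were higher, with a median of 0.15. MAPK6, an atypical MAP kinase, was at 0.27, and MAPK3, which encodes ERK1, at 0.18 with its other kept probe at -0.33. MAPK7, which encodes ERK5, was at -0.13 (-0.09 without the 8 h pair) and in a second probe at 0.14, and MAPK10, a JNK near background here, at 0.12.

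Of 7 MAP kinase kinases 5 were measured, with 0 lower and 0 higher at all times, and their means rested largely on 8 h. MAP2K2 and MAP2K1 encode the kinases that pimasertib inhibits. The MAP2K2 difference was -0.01, 0.76 and 0.34 at 4, 8 and 12 h, a mean of 0.36, and 0.16 without the 8 h pair. For MAP2K1 it was 0.27, 0.55 and -0.23, a mean of 0.19 with that pair and 0.02 without it. MAP2K4, which acts on JNK, had a mean of 0.33 with the 8 h pair and 0.06 without it. That of MAP2K3, which acts on p38, was -0.22 with the pair and 0.04 without it. Their other kept probes, with all pairs, were at 0.13 for MAP2K4 and -0.32 for MAP2K3. No gene of either list had an unadjusted p under 0.05 in limma.

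Of 15 genes tied to JNK and p38 output 14 were measured, with 4 lower and 0 higher at all times, against 15.7% and 17.4% of all genes, and a median of -0.11. At 4 and 12 h alone 6 were lower and 2 higher, with a median of -0.18. At an unadjusted p under 0.05 in limma 2 were lower, against 3.9% of all genes, and after adjustment 0. These were the stress-induced factor DDIT3, at -0.44, and GADD45A, an activator of p38 signalling, at -0.45 with its other probe at 0.18. MAPKAPK2, a kinase activated by p38, was at -0.36, -1.24 and -0.08 at 4, 8 and 12 h, a mean of -0.56, and -0.22 without the 8 h pair. ATF3, a stress-induced factor, had a mean of 0.48 with that pair and 0.77 without it.

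Of 9 further phosphatases of MAP kinases 8 were measured, with 2 lower and 3 higher at all times and a median of -0.02. Leaving out 8 h gave the same counts and a median of 0.04. At an unadjusted p under 0.05 in limma 1 was lower, PTPN7, a tyrosine phosphatase of blood cells that binds ERK and p38. PTPN7 was at -0.45, with -0.71, -0.08 and -0.57 at 4, 8 and 12 h (adjusted p = 0.691, limma). PPM1A by its brightest probe was at 0.99, 0.26 and 0.08 at 4, 8 and 12 h, a mean of 0.44 resting largely on 4 h. By 4 dimmer probes its means were 0.38, -0.18, 0.48 and 0.25. The brighter PPP2CA probe was at 0.30 and the dimmer at 0.02, and PPP2R1A was at -0.32, or -0.18 without the 8 h pair.

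Of 21 other dual-specificity and related phosphatases 15 were measured, with 3 lower and 3 higher at all times, against 15.7% and 17.4% of all genes, and a median of -0.01. At 4 and 12 h alone 5 were lower and 3 higher, with a median of -0.13. At an unadjusted p under 0.05 in limma 2 were lower, DUSP19 and DUSP15, against 3.9% of all genes, and after adjustment 0. DUSP19, an atypical member linked to the JNK pathway, was at -0.48, -0.48 and -0.60 at 4, 8 and 12 h, a mean of -0.52. DUSP15 was at -0.68, with its other probe at 0.13. STYX, a relative without catalytic activity, was at 0.33 by the brighter and -0.29 by the dimmer of its probes. DUSP3, an atypical phosphatase of ERK and JNK, was at 0.20, 0.07 and 1.56 at 4, 8 and 12 h, a mean of 0.61.

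By likeness of pattern over the 6 arrays, the genes nearest to DUSP2 among 2532 probes searched were MAFF with a Pearson correlation of 0.98, SEMA3E and TLR10 with 0.97 each, and DCUN1D5 and ZKSCAN1 with 0.96 each. Nearest to DUSP5 were CD37 at 0.93, ID3 and TMC6 at 0.87 and BIK and ME2 at 0.86. Nearest to DUSP22 by ILMN_1671809 were RFC2 at 0.996 and GARS1, CENPB, ALG13 and MAPRE1 at 0.99, all of which had their lowest value in the DMSO array of 8 h (6.85 for RFC2 there, against 7.63 to 8.60 in the other arrays). The arrays share a cell line and a normalization, and a correlation over 6 points chosen as the highest of many is a description only.

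**Figure D5:**
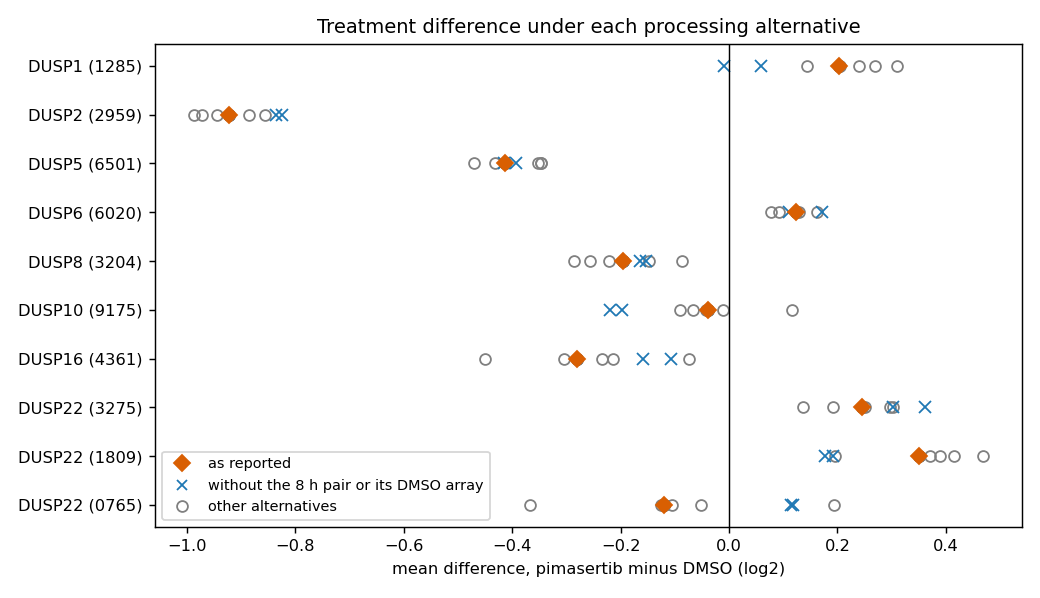
Mean difference of pimasertib minus DMSO (log2, horizontal axis) for the 10 kept DUSP probes as reported (orange diamonds), without the 8 h pair or its DMSO array (blue crosses) and under the other processing alternatives (open circles). DUSP2 stays between -0.99 and -0.82 and DUSP5 between -0.47 and -0.35, while DUSP1, DUSP10 and ILMN_1730765 of DUSP22 have values on both sides of 0.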

How the data were processed

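Total RNA of 6 samples, 1 per treatment and time, was amplified to biotinylated cRNA, per the labels' protocols. The authors' deposited values are log2 intensities of 47231 probes, from 6.20 to 13.91. Their sorted values differ between arrays by at most 9e-04, so they were quantile-normalized before deposit; base 2 is inferred from the range. For software and background correction, the step is not given in the sources used here. Signals before normalization, in 6 value columns whose names match no label, were not used.

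Background was the most frequent value, 6.49, with an SD of 0.070 from the values below it. Kept probes were tested in limma 3.58.1 (R 4.3.3) with treatment and a 3-level time factor, which pairs the arrays by time and leaves 2 residual degrees of freedom. A treatment effect that varies with time therefore counts as error. Each probe's variance was moderated in limma towards that of all kept probes, with a median of 6.34 degrees of freedom in total. The SEs, intervals and p-values thus rest on this shared variance as well as on the probe's own spread. Tests were two-sided, and p-values were adjusted over all kept probes by Benjamini-Hochberg, with a threshold of 0.05. For arrays, their number limits the precision. The fits were tested on simulated data whose noise had the same spread in all arrays. That test therefore does not cover an array less like the rest, such as the DMSO array of 8 h.

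Genes were named from probes with 1 gene in the platform annotation (30113 probes; 8 had several and 17110 none). The named genes are all 10 DUSP genes, EGR1, up to 4 per pathway list of smallest p (by each gene's brightest kept probe) and, for up to 3 DUSP probes of largest difference, the 5 most correlated genes among probes above background in all 6 arrays and spanning at least 1 log2 unit. PAX5 and the pseudogene DUSP5P1 were named outside this rule, after their values were seen. Members and lists were chosen with earlier results of these data known. Alternatives were other filters, thresholds, variance priors, time terms, weights and scalings, and time pairs left out. Counts and list values without the 8 h pair were added after seeing the data.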

Additional observations from a re-analysis of the deposited data

Results flagged for a closer look

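A pair of DUSP probes differed in opposite directions at 2 times, each by more than the residual SD of a difference in their fit. With 1 array per treatment and time the opposition was not tested. For DUSP22 by ILMN_1730765 the difference of pimasertib minus DMSO was 0.38 at 4 h and -0.59 at 8 h, a gap of 0.97. For DUSP10, measured at background level, it was 0.32 at 8 h and -0.35 at 12 h, a gap of 0.67. Both gaps involve the DMSO array of 8 h, where the DUSP22 probe had its highest value of the 6 arrays, 9.26, and the DUSP10 probe its lowest, 6.39.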

How the results depend on the processing

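Calls at an adjusted p under 0.05 in limma numbered 0 of 19896 probes, 2 with a trended and robust variance prior and 0 to 10 when each time pair was left out, the 10 coming without the 12 h pair; no DUSP probe was among them. At an unadjusted p under 0.05 there were 1366 probes, against 3022 with no filter on dim probes, 836 with 1 probe per gene, 2151 in a fit that left out the DMSO array of 8 h and also took hours as a linear term (1123 with the linear term alone) and 1307 without the time factor that pairs the arrays (no replicate block). Cyclic loess gave 777 higher and 500 lower, against 681 and 685. DUSP2 kept its sign and an unadjusted p under 0.05 in all 14 alternatives (-0.99 to -0.82, p from 0.000128 to 0.00985, adjusted p from 0.178 to 0.807, limma). DUSP5 kept its sign in all 14 (-0.47 to -0.35), with such a p in 5 (adjusted p from 0.461 to 0.808, limma). Uncalled signs changed for DUSP1 in 1 alternative, DUSP10 in 1 and ILMN_1730765 of DUSP22 in 3. The per-hour change has no test without the 8 h pair, since 4 arrays leave no residual. Signals near background limit DUSP4, DUSP6, DUSP7, DUSP8 and DUSP10.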
